A study of Mus musculus with 4 samples.

Results

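Genes of DNA replication and of the cell cycle were followed in whole mouse embryos of 2 genotypes and 2 stages. The members were 50 named genes, each on exactly 1 row of tables that list 36808 genes. They were chosen by symbol and grouped by main role: 26 as S phase genes, 8 as G1/S control genes and 16 as mitosis genes. Of the 26, 11 belong to licensing, a step before DNA is copied that is described below. Directional mRNA-seq had been run on 1 library for each of 4 groups: wild type at E8, Tc/Tc at E8, wild type at E10 and Tc/Tc at E10. E8 stands for embryos staged E7.5 to 8.0 and E10 for embryos staged E10.0 to 10.5. All carried a (C3H/HeH x 101/H)F1 background, and Tc is a mutant allele of Brachyury (T), a T-box factor needed for mesoderm formation and the notochord. The labels leave the number of embryos per library unstated.

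Before a cell copies its DNA, the origin recognition complex, Cdc6 and Cdt1 load the Mcm2 to Mcm7 helicase onto origins, a step called licensing that geminin (Gmnn) blocks after S phase has begun. Cyclin E with Cdk2 then helps to start the helicase with Cdc45, the GINS complex and Mcm10, and polymerases with the sliding clamp Pcna copy the strands. Entry into mitosis depends on cyclin B with Cdk1, and exit on Cdc20, which turns on the anaphase-promoting complex. Cells of the early mouse embryo divide fast, with short gap phases, and cells that become neurons leave the cycle.

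Upstream sequences of 6 members are shown because S phase and mitosis genes, the groups compared throughout, are known to have different promoter elements. S phase genes are known targets of E2F factors, and mitosis genes of complexes that bind a CHR element, usually with NF-Y at CCAAT boxes. RefSeq promoters of build GRCm38.p6 were matched by symbol for 38 of the 50 members, from 250 bases before to 50 after the gene start. The E2F letters searched were TTTCCCGC, TTTCGCGC, TTTGCCGC and TTTGGCGC, the CHR letters were TTTGAA and TTCGAA, and the NF-Y letters were CCAAT, all on both strands with overlaps allowed. Below are the 250 bases before the start, 5′ to 3′, for the most highly expressed members with the letters of their group, with Orc1 and Cdc20 added after their values were seen. Capitals mark E2F letters in Mcm7, Mcm6 and Orc1 and CHR letters in Top2a, Cdk1 and Cdc20.
Mcm7 (chr5:138171884-138172133, minus strand): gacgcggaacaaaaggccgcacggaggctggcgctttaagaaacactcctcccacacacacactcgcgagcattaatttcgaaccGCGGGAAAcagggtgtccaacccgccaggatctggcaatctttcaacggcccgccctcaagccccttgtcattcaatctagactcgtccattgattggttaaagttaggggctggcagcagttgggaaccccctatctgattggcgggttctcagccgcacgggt
Mcm6 (chr1:128359706-128359955, minus strand): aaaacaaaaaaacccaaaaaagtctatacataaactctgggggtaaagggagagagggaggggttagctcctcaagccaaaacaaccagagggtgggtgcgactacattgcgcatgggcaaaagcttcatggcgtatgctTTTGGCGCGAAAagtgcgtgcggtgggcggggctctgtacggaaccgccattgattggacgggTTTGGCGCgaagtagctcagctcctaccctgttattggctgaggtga
Orc1 (chr4:108579204-108579453, plus strand): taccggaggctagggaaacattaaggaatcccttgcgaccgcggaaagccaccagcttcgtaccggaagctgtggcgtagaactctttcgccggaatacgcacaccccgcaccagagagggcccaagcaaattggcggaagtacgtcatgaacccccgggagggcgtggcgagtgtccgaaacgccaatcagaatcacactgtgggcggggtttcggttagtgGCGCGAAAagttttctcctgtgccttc
Top2a (chr11:99024190-99024439, minus strand): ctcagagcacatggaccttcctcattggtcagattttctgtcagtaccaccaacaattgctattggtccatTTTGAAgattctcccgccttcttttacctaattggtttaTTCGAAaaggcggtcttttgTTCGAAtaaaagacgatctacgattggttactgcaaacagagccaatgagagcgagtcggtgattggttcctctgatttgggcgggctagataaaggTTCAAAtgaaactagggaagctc
Cdk1 (chr10:69352913-69353162, minus strand): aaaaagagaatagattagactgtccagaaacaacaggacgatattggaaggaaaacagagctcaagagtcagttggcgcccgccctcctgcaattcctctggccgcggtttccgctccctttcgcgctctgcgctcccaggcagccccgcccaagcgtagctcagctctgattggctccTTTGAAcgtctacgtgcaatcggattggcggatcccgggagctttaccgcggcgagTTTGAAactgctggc
Cdc20 (chr4:118437344-118437593, minus strand): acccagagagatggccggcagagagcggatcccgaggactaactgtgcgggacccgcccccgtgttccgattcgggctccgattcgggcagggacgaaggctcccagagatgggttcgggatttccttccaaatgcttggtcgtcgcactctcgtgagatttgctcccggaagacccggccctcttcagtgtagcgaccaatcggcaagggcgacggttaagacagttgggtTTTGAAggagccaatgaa
Mcm7 has 2 listed promoters, of which 1 is shown. Mcm6 held 3 E2F matches, of which 1 pair overlapped, and Top2a held 4 CHR matches and 6 CCAAT matches. The CHR match of Cdc20 began 18 bases before the start and the nearest one of Cdk1 began 15 bases before it.

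E2F letters stood in 10 of 20 S phase promoters and in 1 of 13 mitosis promoters, that of Cdk1, against 2.61% of 27025 genes in the table. CHR letters stood in 11 of 13 mitosis promoters and 5 of 20 S phase promoters, against 21.7% of all genes. In the 250 bases before the start alone, the stretch printed above, they stood in 7 of 13 mitosis promoters (53.8%) and 5 of 20 S phase promoters, against 19.6% of all genes. CCAAT stood in all 13 mitosis promoters and in 16 of 20 S phase promoters, against 41.1% of all genes. Of the 5 matched G1/S control genes, Cdk2 and Cdc25a held E2F letters and 0 held CHR letters. A match describes the reference sequence and does not show that a factor bound there.

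**Figure D1:**
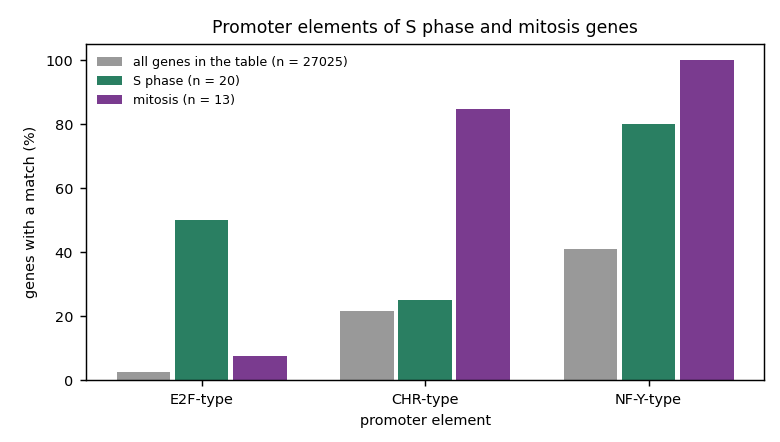
The percent of genes whose RefSeq promoter (250 bases before to 50 after the start) holds E2F-type, CHR-type or NF-Y-type letters, for all 27025 genes, 20 S phase members and 13 mitosis members. E2F-type letters are most frequent in the S phase bars (50%) and CHR-type letters in the mitosis bars (84.6%, or 53.8% with the 250 bases before the start alone).

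Values are the authors' FPKM, a fragment count divided by transcript length and by the mapped total, so levels of different genes can be compared per length. Total FPKM was between 598365 and 737448 per library in the tables that compare the genotypes, and 12900 to 13583 genes reached 1 FPKM. Read depth is unknown and each group has 1 library, so no value carries an SD and no difference was tested. Each library except Tc/Tc E10 was used from 2 tables, estimated anew in each, and the second estimate is given wherever it matters. A ratio is log2 of (FPKM + 1) over (FPKM + 1), and a gene is called higher or lower past a fold of 1.5 or of 2, as a description of these libraries. In bulk embryos, fewer cells of a type and less RNA per cell cannot be told apart. T itself, whose level does not tell which allele was read, stood at 36.7, 48.3, 7.18 and 30.4 FPKM in wild type E8, Tc/Tc E8, wild type E10 and Tc/Tc E10. Markers of other cells moved with genotype and stage. At E8, 14 visceral endoderm and yolk sac markers summed to 1938 FPKM (wild type) and 6064 (Tc/Tc), with all 14 higher in Tc/Tc (13 with second estimates). At E10, 15 of them summed to 60.0 and 1060 FPKM, with 4 of 15 listed at 0 in wild type. The 7 markers of primitive erythroid cells summed to 102 and 94.3 FPKM at E8 and to 4862 and 1703 at E10, and those of trophoblast to between 7.84 and 28.5 in the 4 libraries. The part of these cells in the values below was not tested.

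The 50 genes were abundant in each library. Their median was 64.6 FPKM in wild type E8, 70.0 in Tc/Tc E8, 56.8 in wild type E10 and 71.8 in Tc/Tc E10, over 49 estimated members in each. Second estimates gave 65.4, 62.6 and 66.4 FPKM for the first 3, over 48, 50 and 48 members. The order of these 3 medians therefore rests on the table used. The median of all genes at 1 FPKM or more lay between 9.35 and 11.1 FPKM. The members together held 0.622% of total FPKM in wild type E8, 0.560% in Tc/Tc E8, 0.590% in wild type E10 and 0.693% in Tc/Tc E10. Mcm7 had the highest level at E8 and Pcna at E10, while Gins3, a GINS subunit, and E2f1, an E2F factor, were the lowest in each library. Cdc45 was not estimated at E8 in the genotype table, nor Rfc4, a clamp loader subunit, at E10.

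**Figure D2:**
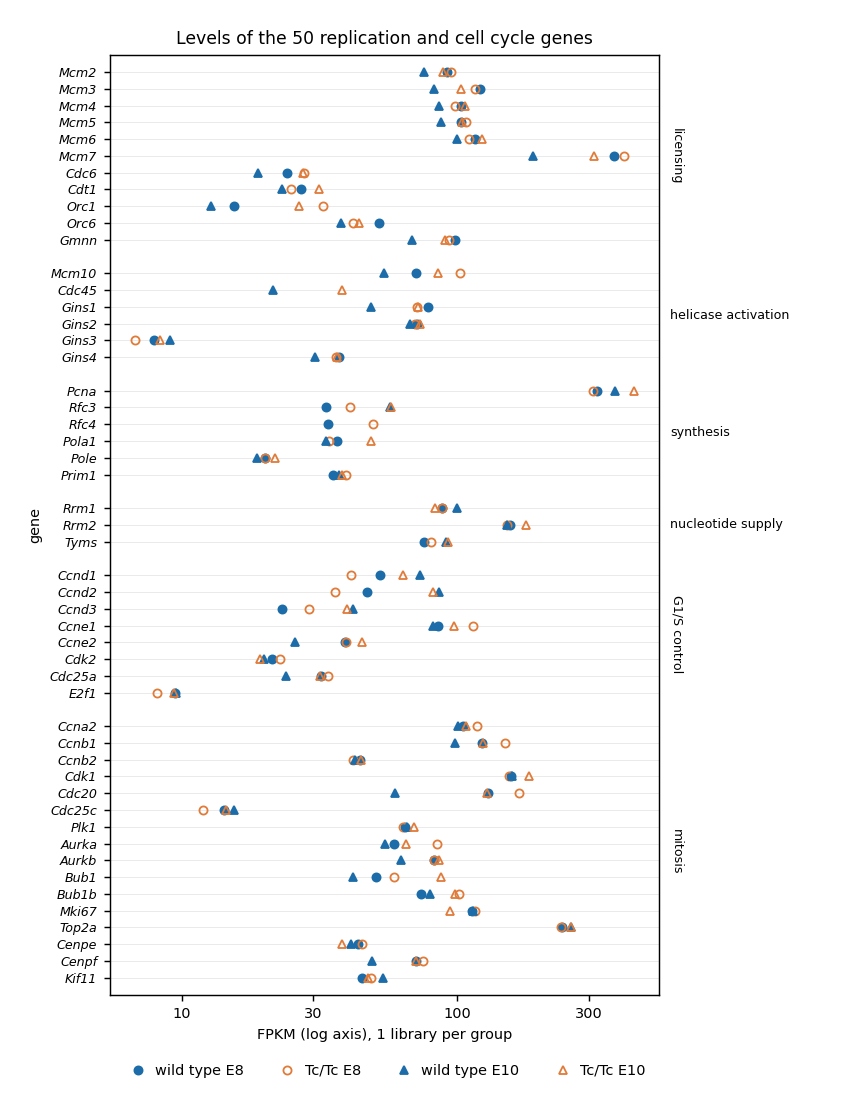
FPKM on a log axis of each of the 50 genes, with 1 point per library, grouped by role, with the values of the 2 genotype tables. Wild type E10 (filled triangles) is the lowest point of each licensing gene. Gins3 and E2f1 lie under 10 FPKM in all libraries.

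Over the 48 members estimated in both genotype tables, the median fold between the highest and the lowest library was 1.36, against 1.54 over 14257 genes. Cyclin B2 (Ccnb2) varied least, by 1.07-fold, followed by the topoisomerase Top2a at 1.09-fold and the GINS subunit Gins2 at 1.09-fold. With second estimates Ccnb2 again varied least, by 1.07-fold, while Gins2 ranged by 1.11-fold and Top2a by 1.28-fold. Ccnb2 stood at 44.5 FPKM in wild type E8, 41.8 in Tc/Tc E8, 42.6 in wild type E10 and 44.9 in Tc/Tc E10. The mitotic kinase Plk1 ranged by 1.10-fold, at 64.6, 63.3, 65.6 and 69.7 FPKM in the same order. The widest ranges were those of Cdc20 at 2.79-fold, Orc1 at 2.43-fold and cyclin D2 (Ccnd2) at 2.35-fold. With second estimates the widest were cyclin D1 (Ccnd1) at 2.63-fold, Ccnd2 at 2.35-fold and Rfc3 at 2.13-fold, while Cdc20 ranged by 1.81-fold and Orc1 by 1.65-fold. In all, 14 of 48 members ranged by 1.5-fold or more, against 54.0% of all genes, and 5 by 2-fold or more, against 25.1% of all genes. The members had higher median levels than all genes, and no set of genes of like level was compared. All 11 licensing genes were lowest in wild type E10, and so were 17 of 24 S phase genes and 7 of 16 mitosis genes, against 44.6% of all genes. With second estimates 10 licensing genes were lowest there, 13 S phase genes and 3 mitosis genes, against 36.9% of all genes. These orders set side by side values from tables estimated separately.

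The first comparison asked whether Tc/Tc embryos differed from wild type at E8 in genes of the dividing cell. Of 49 estimated members, 48 stayed within a fold of 1.5, against 81.7% of 13547 genes. Like the ranges above, this share was not set against genes of like level. At a fold of 2 or more, 1 member was higher and 0 were lower, where 4.21% of all genes were higher and 3% lower. A fold of 1.5 called the same member and 0 lower, where 10.9% of all genes were higher and 7.48% lower. The median ratio was 0.01 over the members and 0.06 over all genes. S phase genes had a median of -0.02 and mitosis genes of 0.07. Second estimates gave -0.06 and -0.03, and rescaling to equal totals gave -0.25 and -0.16, so the sign of the mitosis median rests on the processing.

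The member past the folds at E8 was Orc1 (ENSMUSG00000028587), the largest subunit of the origin recognition complex. It stood at 15.5 FPKM (wild type) and 32.6 (Tc/Tc). The second estimates were 15.8 and 20.1 FPKM, and the ratio went from 1.03 to 0.33, so the call rests on the table used. The next ratios, 0.53 for the clamp loader subunit Rfc4, 0.52 for Mcm10 and 0.52 for the spindle kinase Aurka, lay below a fold of 1.5. Mcm10 stood at 70.8 FPKM (wild type) and 102 (Tc/Tc), and its second estimate in Tc/Tc was 73.9. With second estimates 0 of 48 members passed a fold of 1.5 in either direction, against 7.58% of all genes higher and 8.53% lower at that fold and 2.7% and 3.16% at a fold of 2.

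The Mcm2 to Mcm7 subunits, which form 1 ring, were nearly level at E8. Mcm2 stood at 91.7 FPKM (wild type) and 94.8 (Tc/Tc), Mcm3 at 121 and 116, and Mcm4 at 103 and 98. Mcm5 stood at 103 and 108 FPKM and Mcm6 at 116 and 110. Their ratios, with that of Mcm7, lay between -0.08 and 0.12, and 3 of 6 were above 0. Rescaled to equal totals, all 6 were below 0, between -0.30 and -0.11; total FPKM in Tc/Tc E8 was the highest of the libraries. At E8 the lowest ratios of the 49 members were those of 2 D cyclins, which pair with Cdk4 and Cdk6 in G1. Ccnd2 stood at 47.1 FPKM (wild type) and 36.0 (Tc/Tc), a ratio of -0.38, and Ccnd1 at 52.4 and 41.1 (-0.34, and -0.57 with second estimates). Ccnd3 went the other way, at 23.1 and 29.1 FPKM (0.32). Cyclin E1 (Ccne1) stood at 85.0 FPKM (wild type) and 114 (Tc/Tc), a ratio of 0.42. Each of these is within a fold of 1.5.

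At E10 the second comparison gave more members on the higher side. A fold of 2 called 3 of 49 members higher in Tc/Tc and 0 lower, where 4.94% of 14265 genes were higher and 3.08% lower. At 1.5, 7 were higher and 0 lower, where 14.8% of all genes were higher and 6.68% lower. The 7 were Mcm7, Orc1, Mcm10, Cdc45, Ccne2, Cdc20 and Bub1. The share of 7 in 49 members was close to that background. The median was 0.23 over the members and 0.16 over all genes. With second estimates of wild type E10, 1 of 48 passed a fold of 1.5, Cdc20, against 9.93% of all genes higher and 7.53% lower. None passed a fold of 2, where 3.53% of all genes were higher and 3.3% lower, and the medians were 0.10 and 0.09.

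**Figure D3:**
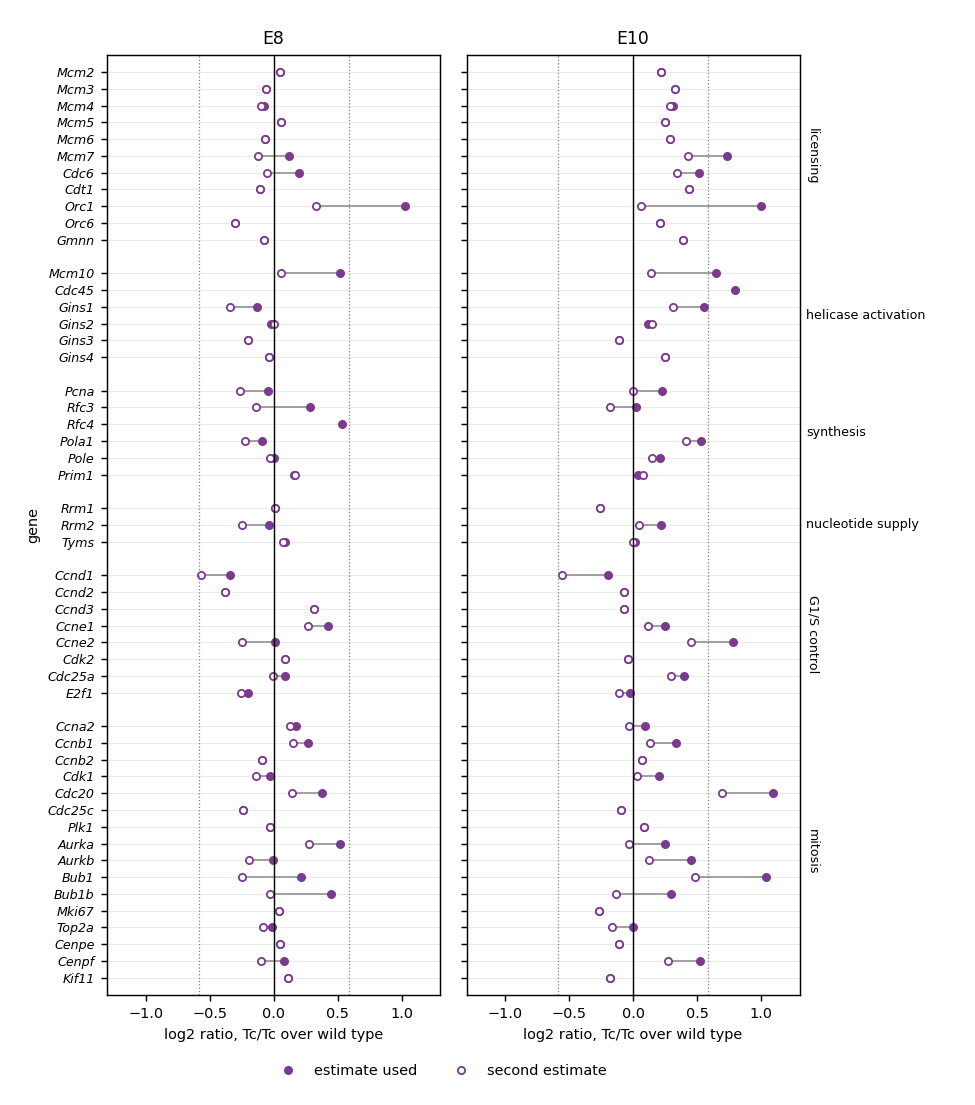
Log2 ratio of Tc/Tc over wild type for each gene at E8 (left) and E10 (right), with filled points for the estimates used, open points for second estimates of the same libraries and dotted lines at a fold of 1.5. At E8 the points lie around 0 and Orc1 alone passes the line; at E10 licensing genes lie to the right of 0 with either estimate, and the long bars of Orc1, Bub1, Mcm10 and Cdc20 show how far the estimates differ.

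Cdc20 (ENSMUSG00000006398), the activator of the anaphase-promoting complex, had the highest ratio at E10. It stood at 59.4 FPKM (wild type) and 128 (Tc/Tc), a ratio of 1.09. The second estimate of wild type was 78.5 FPKM, which gave 0.70. Its E8 level stood at 129 FPKM (wild type) and 168 (Tc/Tc), with a second estimate of 143 for Tc/Tc. Wild type E10 was therefore the lowest of the 4 libraries with either estimate. Pttg1, the securin that the Cdc20-bound complex destroys, stood at 29.4 FPKM in wild type E10 and 46.2 in Tc/Tc E10 (ratio 0.63 with either estimate); it was on the list of other mitosis genes.

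Bub1 and Orc1 passed a fold of 2 at E10 with 1 of the 2 estimates. Bub1, a kinase of the spindle checkpoint, stood at 41.8 FPKM (wild type) and 87.0 (Tc/Tc), a ratio of 1.04. The second estimate of wild type was 61.9 FPKM, a ratio of 0.48. Orc1 stood at 12.8 FPKM (wild type) and 26.6 (Tc/Tc), a ratio of 1.0. Its second estimate in wild type was 25.5 FPKM, about the level of Tc/Tc, and the ratio was 0.06. Mcm7 stood at 188 FPKM (wild type) and 313 (Tc/Tc), a ratio of 0.74, or 233 in wild type by the second estimate (0.43). Cyclin E2 (Ccne2) stood at 25.8 and 45.0 FPKM (0.78), or 32.6 in wild type by the second estimate (0.46). Cdc45 stood at 21.5 and 38.1 FPKM (0.80) and had no second estimate in wild type.

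Licensing genes lay on 1 side at E10. All 11 ratios of Tc/Tc over wild type were above 0, from 0.21 to 1.0 with a median of 0.33, where 66.9% of all genes were above 0. Of the 11, 2 passed a fold of 1.5 (Mcm7 and Orc1), and 0 with second estimates. All 11 second estimates were again above 0, from 0.06 to 0.43, with a median of 0.29, where 60.3% of all genes were above 0. All 11 also stayed above 0 when ratios were centred on the median of all genes, the lowest at 0.05. For 7 of them the 2 estimates of wild type E10 differed by 0.01 or less on the log2 scale, and their ratios lay between 0.21 and 0.43. Mcm3 stood at 82.1 FPKM (wild type) and 103 (Tc/Tc), Gmnn at 68.6 and 90.2, and Cdt1 at 23.0 and 31.5. Mcm2, Mcm5 and Mcm6 stood at 75.9, 87.4 and 100 FPKM in wild type and at 88.4, 104 and 122 in Tc/Tc. None of the ratios of these 6 genes reached a fold of 1.5. In the same 2 libraries all 12 markers of postmitotic neurons were below 0, 8 of them past a fold of 2. They summed to 108 FPKM (wild type) and 32.9 (Tc/Tc), with the neuronal factors Neurod1 and Neurod4 listed at 0 in Tc/Tc; their part in the licensing ratios was not tested.

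Mitosis genes were less one-sided at E10. Of 16, 12 were above 0, where 66.9% of all genes were, and 8 lay above the all-gene median. Their median was 0.14. With second estimates 8 were above 0, where 60.3% of all genes were, and the median was 0.00. The proliferation marker Mki67 stood at 114 FPKM (wild type) and 94.3 (Tc/Tc), a ratio of -0.27, the mitotic kinesin Kif11 at 54.0 and 47.5 (-0.18), and the kinetochore kinesin Cenpe at 41.2 and 38.1 (-0.11). Top2a stood at 259 FPKM in both, or at 291 in wild type by the second estimate (-0.17). For 6 mitosis genes the wild type E10 estimates differed by 0.01 or less, and their median was -0.10 with 2 above 0; the 10 S phase genes of that kind had a median of 0.25 with 8 above 0, and the 6348 genes of that kind a median of 0.07. These 16 genes were picked for their stable estimates after the values were seen, so the split is a description.

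The S phase genes together had 23 of 25 above 0 at E10 and 19 of 24 with second estimates, while the G1/S control genes had 3 of 8 with either. Of all genes, 66.9% were above 0, or 60.3% with second estimates. All 3 D cyclins were below 0, between -0.20 and -0.07, or between -0.56 and -0.07 with second estimates. The lowest was Ccnd1, at 73.2 FPKM (wild type) and 63.6 (Tc/Tc), or 94.0 in wild type by the second estimate.

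Outside licensing, 5 of 6 helicase activation genes, 5 of 5 synthesis genes and 2 of 3 nucleotide supply genes were above 0, or 4 of 5, 3 of 5 and 1 of 3 with second estimates. The share of all genes above 0 was 66.9%, or 60.3% with second estimates. Mcm10, which helps to start the helicase, stood at 54.0 FPKM (wild type) and 85.2 (Tc/Tc), a ratio of 0.65, and at 77.3 in wild type by the second estimate (0.14). The DNA polymerase alpha subunit Pola1 stood at 33.4 FPKM (wild type) and 48.6 (Tc/Tc), a ratio of 0.53, or 0.41 with the second estimate, and the GINS subunit Gins1 at 48.7 and 71.8 (0.55, or 0.31). Pcna stood at 374 and 438 FPKM (0.23), and at 439 in wild type by the second estimate, which gave a ratio of 0.00 to 2 decimals. The large ribonucleotide reductase subunit Rrm1 had the lowest S phase ratio, at 99.9 FPKM (wild type) and 83.2 (Tc/Tc), a ratio of -0.26. Thymidylate synthase (Tyms) stood at 91.3 and 92.3 FPKM. Prim1, a primase subunit, stood at 37.2 and 38.2 FPKM.

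Development in wild type was read within 1 table that holds both wild-type libraries. By a fold of 2, 0 of 48 members differed between E10 and E8, where 7.36% of 14239 genes were higher and 5.15% lower. With 1.5 as the fold, 5 were higher (Orc1, Rfc3, Ccnd1, Ccnd2 and Ccnd3) and 2 lower (Mcm7 and Cdc20), where 16.2% of all genes were higher and 12.9% lower. The median was 0.00 over the members and 0.02 over all genes. With the estimates of the genotype tables, 3 were higher (Rfc3, Ccnd2 and Ccnd3) and 3 lower (Mcm7, Gins1 and Cdc20), where 12.6% of all genes were higher and 15.6% lower. Cdc20 alone then passed a fold of 2, downward, where 5.36% of all genes were higher and 5.78% lower.

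In Tc/Tc, the E10 value came from the E10 genotype table and the E8 value from the Tc/Tc stage table, so this comparison joins tables that were estimated separately. By a fold of 2, 2 of 49 members were higher at E10 (Ccnd2 and Bub1) and 0 lower, where 7.7% of 13845 genes were higher and 4.07% lower. With 1.5 as the fold, 6 were higher (Pcna, Rfc3, Pola1, Ccnd1, Ccnd2 and Bub1) and 0 lower, where 19.1% of all genes were higher and 9.54% lower. With the other estimate of Tc/Tc E8, Ccnd1 and Ccnd2 alone passed a fold of 1.5, where 15.7% of all genes were higher and 11.1% lower. Ccnd2 alone passed a fold of 2, where 6.21% were higher and 4.74% lower. The median was 0.15 over the members and 0.12 over all genes. In the authors' deposited table of the Tc/Tc stages, log2 of the fold was 0.69 for Rfc4 and 0.38 for Cdc45, the 2 members with gaps in the other tables.

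**Figure D4:**
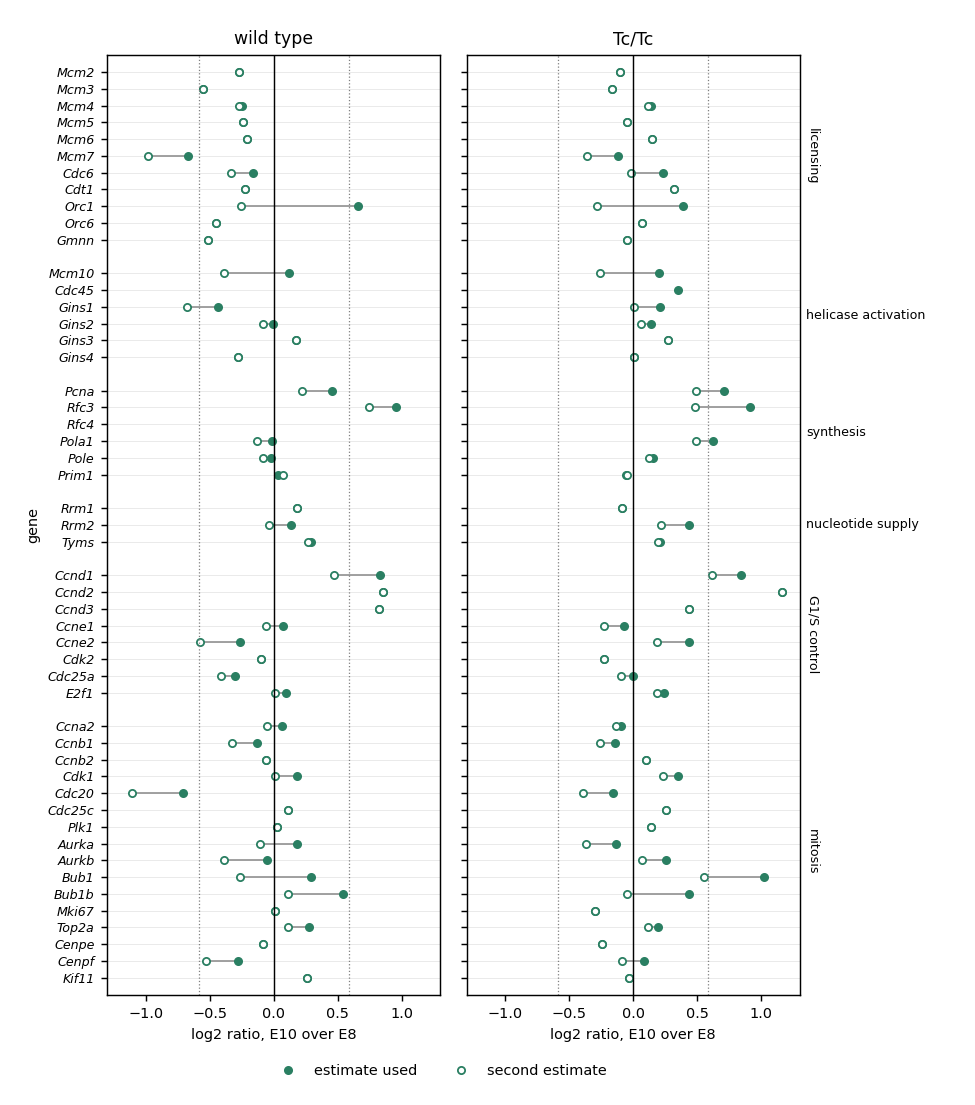
Log2 ratio of E10 over E8 for each gene in wild type (left) and Tc/Tc (right), with filled points for the estimates used, open points for second estimates and dotted lines at a fold of 1.5. The 3 D cyclins lie to the right of 0 in both panels, between 0.44 and 1.16, while Mcm7 and Cdc20 lie left of the line in wild type.

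All 3 D cyclins, which link growth signals to Cdk4 and Cdk6, had E10 over E8 ratios above 0 in both genotypes. In wild type 3 of 3 passed a fold of 1.5 (2 with second estimates), and in Tc/Tc Ccnd1 and Ccnd2 did with either estimate. Among all genes, 16.2% were higher past that fold in wild type and 19.1% in Tc/Tc, or 12.6% and 15.7% with second estimates. Shares of all genes above 0 were 51.7% and 59.7%, or 44.2% and 53.0% with second estimates. Ccnd1 stood at 52.4 FPKM in wild type E8 and 94.0 in wild type E10 (ratio 0.83), and at 35.1 in Tc/Tc E8 and 63.6 in Tc/Tc E10 (0.84). Ccnd2 stood at 47.1 and 85.8 FPKM in wild type (0.85) and at 36.0 and 81.8 in Tc/Tc (1.16). Ccnd3 stood at 23.1 and 41.7 FPKM in wild type (0.83) and at 29.0 and 39.7 in Tc/Tc (0.44). The ratios were above 0 with rescaling to equal totals, with centring and with second estimates. The pseudocounts and minimums tried could not change these signs, because a pseudocount keeps the sign and all 3 genes exceed each minimum. Second estimates gave lower ratios for Ccnd1, 0.47 in wild type and 0.62 in Tc/Tc. In wild type the highest and lowest of the 3 ratios differed by less than in Tc/Tc.

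Cyclins E1 and E2, partners of Cdk2 at the start of S phase, stayed within a fold of 1.5 between the stages. In wild type Ccne1 stood at 85.1 FPKM at E8 and 89.5 at E10, and Ccne2 at 39.3 and 32.6. In Tc/Tc Ccne1 stood at 102 and 97.3 FPKM and Ccne2 at 33.0 and 45.0. The ratio of summed D cyclins to summed E cyclins within a library, which does not depend on scaling, was 0.988 in wild type E8, 0.691 in Tc/Tc E8, 1.87 in wild type E10 and 1.301 in Tc/Tc E10. Second estimates gave 0.986, 0.739 and 1.81 for the first 3. It was higher at E10 in each genotype and lower in Tc/Tc at each stage. Cdk2 itself had ratios of -0.10 in wild type and -0.23 in Tc/Tc, and E2f1 of 0.10 and 0.24.

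**Figure D5:**
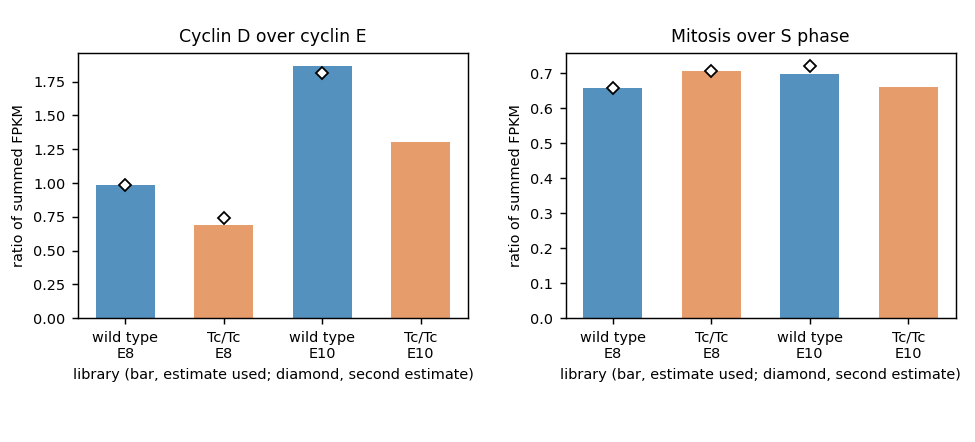
Ratios of summed FPKM within each library, for cyclin D over cyclin E genes (left) and for 16 mitosis over 24 S phase genes (right); bars are the estimates used and diamonds the second estimates. In the bars the cyclin ratio runs from 0.691 to 1.87, and the mitosis ratio from 0.657 to 0.706. The diamond of wild type E10 puts the mitosis ratio at 0.722.

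Licensing genes had mostly E10 over E8 ratios below 0 in wild type. Of 11 in the wild-type table, 10 were below 0, with a median of -0.25, and the exception was Orc1 at 0.66. With the genotype tables' estimates all 11 were below 0, with a median of -0.27, where 51.7% and 44.2% of all genes were above 0 with the respective estimates. Mcm7 stood at 371 FPKM at E8 and 233 at E10 (-0.67), Mcm3 at 121 and 82.1 (-0.55), and Gmnn at 98.2 and 68.6 (-0.51). In Tc/Tc 6 of 11 were above 0, with a median of 0.07, and with the other E8 estimate 4 of 11, where 59.7% and 53.0% of all genes were above 0. Rescaled to equal totals, 10 of 11 were above 0 in Tc/Tc, with a median of 0.22, so that split rests on the scaling. The wild type E10 library enters both this stage ratio and the E10 genotype ratio, so the low licensing levels in it are counted in both.

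Genes of strand synthesis had another order. Rfc3, a clamp loader subunit, stood at 33.3 FPKM in wild type E8 and 65.6 in wild type E10 (0.96), and at 30.2 and 57.7 in Tc/Tc (0.91). Pcna stood at 320 and 439 FPKM in wild type (0.46) and at 267 and 438 in Tc/Tc (0.71). Pola1 was level in wild type, at 36.7 and 36.3 FPKM, and stood at 31.3 and 48.6 in Tc/Tc (0.62). The polymerase epsilon subunit Pole had ratios of -0.02 and 0.15. Second estimates in wild type and Tc/Tc gave 0.75 and 0.49 for Rfc3, 0.22 and 0.50 for Pcna, and -0.13 and 0.49 for Pola1. In Tc/Tc none of these genes then passed a fold of 1.5.

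The proportion of mitosis to S phase genes varied little within a library. The summed level of 16 mitosis genes over that of 24 S phase genes was 0.657 in wild type E8, 0.706 in Tc/Tc E8, 0.699 in wild type E10 and 0.662 in Tc/Tc E10. Second estimates gave 0.658, 0.707 and 0.722 for the first 3, so wild type E10 and Tc/Tc E8 changed order. Within S phase, Mcm2 to Mcm6 kept within 1.22-fold to 1.38-fold of each other in each library, while Mcm7 stood at 3.47, 3.83, 2.18 and 2.99 times their mean in wild type E8, Tc/Tc E8, wild type E10 and Tc/Tc E10. Second estimates of Mcm7 gave 3.24 in Tc/Tc E8 and 2.69 in wild type E10, which put Tc/Tc E8 below wild type E8.

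The 2 estimates of a library differed for many members, and in 1 direction. For wild type E10, 23 of 48 members were lower in the genotype table by more than 0.1 on the log2 scale and 0 were higher. For Tc/Tc E8, 21 of 49 members were higher in the genotype table by more than 0.1 and 0 were lower. Both shifts raise Tc/Tc over wild type in the genotype tables. Over all genes the shares beyond 0.1 were 30.7% in wild type E10 and 30.9% in Tc/Tc E8. Orc1 had the largest shift in both, -0.94 and 0.67. The wild type E8 estimates differed by more than 0.1 in 1 of 48 members, Gins2, at 71.1 and 66.1 FPKM. Members that shifted beyond 0.1 in wild type E10 had 3 to 10 transcripts in GENCODE M21 and those within 0.01 had 1 to 21, with a median of 5 in each; over all genes the medians were 7 and 3. The part of transcript structure in the shifts was not tested.

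Other genes of the same pathways were counted by list. For these counts at a fold of 1.5, the shares of all genes were 10.9% higher and 7.48% lower at E8 and 14.8% and 6.68% at E10, or 7.58% and 8.53% and 9.93% and 7.53% with second estimates. Of 30 other S phase genes estimated at E8, 1 was higher, the origin recognition subunit gene Orc5 (ratio 0.94, or 0.04 with second estimates), and 0 lower. At E10, 7 of 32 were higher and 0 lower, with a median of 0.30. With second estimates 0 of 30 passed at E8 and 1 of 30 at E10, the replication protein A subunit gene Rpa3, with a median of 0.10. Orc5 had the widest shift: it stood at 19.1 FPKM in wild type E10 and 70.6 in Tc/Tc E10, but at 67.5 in wild type by the second estimate. Of 33 other mitosis genes, 1 was higher at E8 (Racgap1, a cytokinesis factor) and 1 at E10 (Pttg1), with medians of 0.14 and 0.15. Racgap1 went from a ratio of 0.71 to 0.24 with second estimates, which left 0 of 33 at E8 and a median of 0.03. At E10 second estimates left 1 of 33 higher, again Pttg1, with a median of 0.05. The medians of all genes were 0.06 at E8 and 0.16 at E10, or -0.01 and 0.09 with second estimates. Of 20 E2F, Rb and late cell cycle regulators measured at E10, 0 passed a fold of 1.5; at E8 1 of 19 did, Mybl2, a MYB factor of the complex that binds CHR elements, at 75 FPKM (wild type) and 121 (Tc/Tc), a ratio of 0.68, or 0.57 with second estimates, under the fold. With second estimates 2 of 19 regulators were lower at E10, E2f2 and Rb1. Of these genes Orc5 alone passed a fold of 2 between genotypes; the others were named after their values were seen.

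Cell cycle inhibitors spread more widely than the members at E8. Over 14 estimated inhibitors the median was 5.32 FPKM (wild type) and 5.04 (Tc/Tc), against 64.6 and 70.0 for the members. The part of low levels in the spread of the inhibitors was not tested. Of 12 measured, 4 were higher in Tc/Tc past a fold of 1.5 and 2 lower, or 4 and 3 with second estimates, beside the same E8 shares of all genes, 10.9% and 7.48%, or 7.58% and 8.53%. Cdkn1a, an inhibitor of Cdk2, stood at 3.4 FPKM (wild type) and 12.3 (Tc/Tc), a ratio of 1.60. Ccng1, which encodes cyclin G1, stood at 19.2 and 78.9 FPKM (1.99), and Gadd45a, a growth arrest gene, at 22.6 and 9.30 (-1.20). Rb1, the retinoblastoma protein that restrains E2F factors, was lower at E8 than at E10 in both genotypes, at 5.14 and 20.6 FPKM in wild type (1.82) and 3.95 and 13.1 in Tc/Tc (1.51). E2f1 and Cdk2 stayed within a fold of 1.5 in each comparison.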

How the data were processed

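Per the submitters' processing notes, reads were processed with Bowtie2 and Cuffdiff on mm9; no source used here gives versions or the annotation. The authors deposited 4 tables of FPKM values, 2 libraries in each, with the natural log of the fold change (another unit here, since infinite values are coded as numbers). For the Tc/Tc stages, 1 column headed as wild type E10 was not used; its deposited fold changes equalled Tc/Tc E10 over Tc/Tc E8 within 0.01 in 89.1% of 12186 genes; set against wild type E10, 3.28% did.

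Groups came from the sample titles. A row at 0 in both columns of a table was not estimated there. Ratios used a pseudocount of 1 FPKM and genes at 1 FPKM or more in 1 or both libraries, with folds of 1.5 and 2 as size rules; no test was possible with 1 library per group. Members, role groups and lists (15 lists, 196 genes) were chosen with earlier results of these data known. All members could be named; other pathway genes were named past a fold of 2 in a genotype comparison or, where stated, after their values were seen. The ratio step was tested on simulated data. Python 3.11.15, pandas 2.3.3 and NumPy 2.4.6 were used. The alternatives are in the closing section.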

Additional observations from a re-analysis of the deposited data

Results flagged for a closer look

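Orc6, the smallest subunit of the origin recognition complex, was the 1 member whose genotype ratios had opposite signs at the 2 stages with either estimate and exceeded the re-estimation spread. Its log2 ratio of Tc/Tc over wild type was -0.3 at E8, from 51.8 FPKM in wild type to 41.8 in Tc/Tc. At E10 it was 0.21, from 37.7 to 43.8 FPKM. Both are under a fold of 1.5, and the difference between the stages was not tested. Centred on the median of all genes, the ratios were -0.36 at E8 and 0.05 at E10. With equal totals they were -0.53 and 0.18. Either E10 value is under the re-estimation SD of 0.19 in wild type E10, so the flag rests on the scaling.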

How the results depend on the processing

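No paired analysis was possible because each group holds 1 library. For counts of members past a fold, S phase and mitosis medians, sums and promoter shares, 165 values under alternatives stayed within 1.5 times the count, the re-estimation spread for medians and sums (SD 0.17 in Tc/Tc E8 and 0.19 in wild type E10) or the exact binomial interval for promoter shares, and 28 did not. Mitosis medians near 0 changed sign within that spread. The 165 include the settings of no minimum and of a minimum of 5 FPKM, which could not move any value. The lowest level of an estimated member was 6.76 FPKM, that of Gins3 in Tc/Tc E8. Subgroup and list counts also moved, as given beside them. At E8, the 1 member past a fold of 2 became 0 with a pseudocount of 5, with equal totals, with centred ratios and with second estimates. Past a fold of 1.5 at E8, second estimates gave 0 higher, and equal totals gave 1 lower, with medians of -0.249 for S phase and -0.161 for mitosis. At E10, the 3 higher became 7 at a fold of 1.5, 1 with a pseudocount of 5 and 0 with centred ratios or second estimates; the 7 past a fold of 1.5 became 1 with second estimates. For wild-type stages, the 0 past a fold of 2 became 5 higher and 2 lower at a fold of 1.5, second estimates gave 1 lower past a fold of 2, and 3 rather than 5 higher past 1.5. For Tc/Tc stages, the 2 past a fold of 2 became 6 at a fold of 1.5, and 1 with a pseudocount of 5, centred ratios or second estimates; the 6 past 1.5 became 10 with equal totals and 2 with second estimates. As geometric means, mitosis over S phase was 1.19, 1.25, 1.23 and 1.17 in wild type E8, Tc/Tc E8, wild type E10 and Tc/Tc E10. With only the 250 bases before the start, CHR letters stood in 53.8% of mitosis promoters. Counts at a fold of 1.5 under other settings were added after seeing the data. Re-estimation covers neither embryos nor library preparation, and depth is unknown.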
